A study of Mus musculus with 11 samples.

Results

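The 35 genes described here act in DNA damage sensing and repair. They were chosen by name, as damage kinases, break sensors and repair enzymes. All 35 were found among the 27179 genes of the count tables, and all 35 were among the 14542 genes with enough counts to be tested. The samples were neural tissue of C57BL/6 mouse embryos at embryonic day 9.5, taken from the brain to just behind the otic vesicle. Polyadenylated RNA of 11 embryos was sequenced, with 1 library per embryo. The 4 affected females and the 4 control males were p53-/- (the gene is Trp53), and the 3 control females were p53+/+. Every embryo of the 3 groups was also labelled Bim+/-, with 1 copy of the pro-apoptotic gene Bim (Bcl2l11) missing in the controls as well. What marked a female as affected is not described in the labels. Affected females thus differ from control males in sex and phenotype, from control females in p53 and phenotype, and the 2 control groups differ from each other in both sex and p53.

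Cells meet DNA damage with a relay. Sensor complexes bind the lesion and activate the kinases Atm, Atr and DNA-PK, which halt the cell cycle and signal to p53. Repair then follows the lesion: homologous recombination and non-homologous end joining rejoin broken chromosomes, the Fanconi anaemia pathway opens interstrand crosslinks, and excision and mismatch repair replace damaged or mispaired bases. The early neural tube divides rapidly and is known to be sensitive to loss of several of these genes.

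Library totals ran from 8211942 to 11218682 counts. The labels name no litter, batch or date, and give each embryo as a separate sample. Whole-gene levels of Trp53 were 105 to 139 CPM (reads of the gene relative to library depth, after TMM scaling) in all 11 embryos, so they do not separate the genotypes. Ccng1, a gene that p53 activates, was at 21.8 to 24.5 CPM in affected females, 27.5 to 33.5 in control males and 74.7 to 93.8 in control females. Bcl2l11 was at 38.2 to 47.3 CPM in affected females, 36 to 47.7 in control males and 71 to 82.1 in control females, while the Bim label is identical for the 11. Log2 differences of Bcl2l11 from control females were -0.81 ± 0.11 (SE) for affected females and -0.93 ± 0.11 for control males (adjusted p = 0.000851 and 0.000217 by edgeR). The shared Bim genotype therefore rests on the labels, and in comparisons with control females the p53 genotype and this difference in Bcl2l11 cannot be told apart. Xist, transcribed from the inactive X chromosome, was at 1440 to 2170 CPM in affected females, 4390 to 5960 in control females and 8.72 to 13.2 in control males. Markers of the labelled tissue were present in every library, with Sox2 at 99.3 to 169, Pax6 at 82.9 to 112 and Otx2 at 116 to 147 CPM. Marker genes of other cell types were detected too. In bulk tissue, fewer cells of a type and less RNA per cell cannot be told apart.

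Promoter sequence was available for 28 of the 35 genes as RefSeq windows on GRCm38.p6, from 250 bases before to 50 bases after the transcript start. These windows were searched on both strands for TTTNNCGC, a form of the E2F motif, for TTTGAA, the cell cycle homology element, and for the paired CATG core of a p53 site. The motifs were allowed to overlap. TTTNNCGC was in 7 of the 28 windows (25.0%), against 5.27% of the windows of 27025 genes. Its 7 genes were Chek2, Mdc1, Topbp1, Bard1, Brca2, Xrcc6 and Msh6. TTTGAA was in 1 of 28 (3.57%, all genes 18.1%) and the p53 pair in 0 of 28 (all genes 0.77%). The 27025 genes were not limited to genes tested here, as the 35 were, and were not matched for base composition. These shares are therefore a description only. Brca2 and Msh6 are printed because they were the genes with a match that were higher in affected females, and Bard1, chosen after its values were seen, because it holds 3 matches and did not pass the test. Capitals mark the matches, 5′ to 3′ on the strand of the gene. The Brca2 window is chr5:150522371-150522670 on the plus strand, with the match GCGGGAAA (the motif on the other strand) 168 bases before its transcript start. The gene span of Brca2 given below begins at 150522297, ahead of this window, so the match lies inside that span. Msh6 lies at chr17:87974800-87975099 on the plus strand, with TTTCCCGC at 16 bases after the start. The Bard1 window is chr1:71102923-71103222 on the minus strand, with TTTGAA and TTTCCCGC before its transcript start and TTTACCGC after it. The gene span of Bard1 likewise reaches past that start, to 71103141.
Brca2: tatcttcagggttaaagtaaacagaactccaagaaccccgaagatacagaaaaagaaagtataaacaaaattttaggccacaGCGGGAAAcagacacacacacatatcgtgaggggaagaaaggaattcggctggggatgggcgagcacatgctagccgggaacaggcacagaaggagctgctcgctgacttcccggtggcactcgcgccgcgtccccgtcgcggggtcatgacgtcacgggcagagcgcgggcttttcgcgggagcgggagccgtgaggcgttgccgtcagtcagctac
Msh6: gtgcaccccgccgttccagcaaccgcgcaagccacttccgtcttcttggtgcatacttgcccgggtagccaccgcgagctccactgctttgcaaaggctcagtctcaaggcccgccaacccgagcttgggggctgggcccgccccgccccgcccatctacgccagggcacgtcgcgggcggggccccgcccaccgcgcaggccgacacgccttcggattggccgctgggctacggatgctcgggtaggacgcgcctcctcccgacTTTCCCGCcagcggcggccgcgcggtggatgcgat
Bard1: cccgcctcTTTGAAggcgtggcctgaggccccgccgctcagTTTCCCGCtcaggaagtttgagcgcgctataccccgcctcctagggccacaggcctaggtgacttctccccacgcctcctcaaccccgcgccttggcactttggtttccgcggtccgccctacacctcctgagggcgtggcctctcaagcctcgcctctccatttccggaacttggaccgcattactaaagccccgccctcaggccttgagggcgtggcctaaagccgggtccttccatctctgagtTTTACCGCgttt
Of the genes called higher in affected females than in control females, 7 had a window and 2 of these held TTTNNCGC. Of the uncalled genes, 18 had a window and 5 held it.

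Levels per length (RPKM, the CPM divided by the deposited gene length in kilobases) spanned a wide range, with a median of 20.1 over the 35 genes. Parp1, which binds strand breaks and builds poly(ADP-ribose), had the highest mean level at 123 RPKM and ran from 88.3 to 163 over the 11 embryos. Topbp1, the Atr activator, followed at 76.3 RPKM and Msh6, the mismatch recognition subunit, at 63.3 RPKM. The lowest were Prkdc, the catalytic subunit of DNA-PK, at 4.88 RPKM (3.94 to 5.82), Wrn, a RecQ helicase, at 5.34 RPKM (4.52 to 6.18), and Xrcc4, the ligase IV partner, at 5.79 RPKM (4.25 to 6.85). The ranges of these 3 overlapped, so their order is not resolved. Both Ku subunits were well above the catalytic subunit, with Xrcc5 at 39.3 RPKM and Xrcc6 at 41.1 RPKM.

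**Figure D1:**
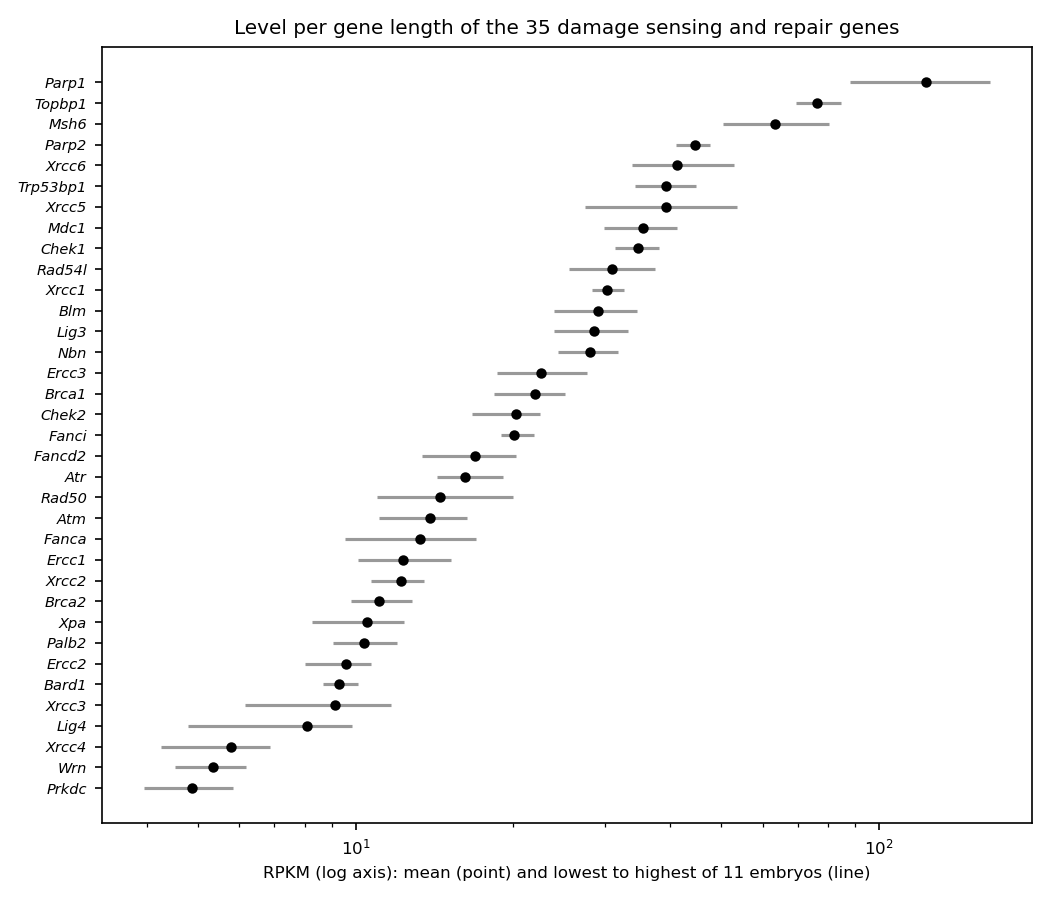
Level per gene length of the 35 genes in RPKM on a log axis, with the mean of all 11 embryos as a point and the lowest to highest embryo as a line. Parp1 sits highest at a mean of 123 RPKM and Prkdc lowest at 4.88, and most neighbouring ranges overlap.

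Against control females, 9 of the 35 genes were higher in affected females (25.7%) and 3 were lower (8.57%), where 13.0% of all genes tested were called higher and 15.0% lower (28.0% in either direction). The genes that rose were Atm, Rad50, Brca1, Brca2, Blm, Xrcc5, Parp1, Msh6 and Ercc3, and those that fell were Rad54l, Xrcc3 and Fanca. A call means an adjusted p under 0.05 in the quasi-likelihood test of edgeR, after Benjamini-Hochberg correction across the 14542 genes. The largest change was 1.52-fold, and log2 differences over the list ran from -0.50 to 0.60 with a median of 0.10 (all genes 0.00). For 13 of the 35 the group ranges did not overlap, 10 above and 3 below, where 40.2% of all genes had separate ranges. The share of genes called higher was thus above the background and the share called lower was under it, and no test of the list was made.

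Against control males, which share the p53-/- genotype, 9 of the 35 were again higher (25.7%) and 2 lower (5.71%), with 9.51% and 10.7% of all genes called (20.2% in either direction). Here Prkdc was called higher and Brca1 was not, and Fanca was not called lower. Log2 differences ran from -0.40 to 0.52 with a median of 0.12 (all genes -0.02). Group ranges did not overlap for 8 of the 35, 7 above and 1 below, against 19.5% of all genes. The 2 comparisons share the affected females, so their calls are not independent, and differences between their calls were not tested.

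Control males and control females, which differ in p53 and in sex, gave no call among the 35 genes, where 0.144% of all genes were called in either direction. By edgeR 0 of the 35 reached an unadjusted p under 0.05, as 891 of all 14542 genes did. DESeq2 and limma voom also called 0 of the 35. Over all genes DESeq2 called 0.0963% higher and 0.199% lower, and limma voom 4.79% and 6%. Log2 differences ran from -0.20 to 0.23 with a median of 0.00, and 17 were positive and 18 negative. Every 95% confidence interval lay inside a 1.5-fold difference (log2 0.58), with outer bounds of -0.50 and 0.57. No gene had separate ranges in these groups, against 5.54% of all genes. The same intervals lay inside 1.5-fold for 27 of the 35 genes against control females and for 31 against control males.

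**Figure D2:**
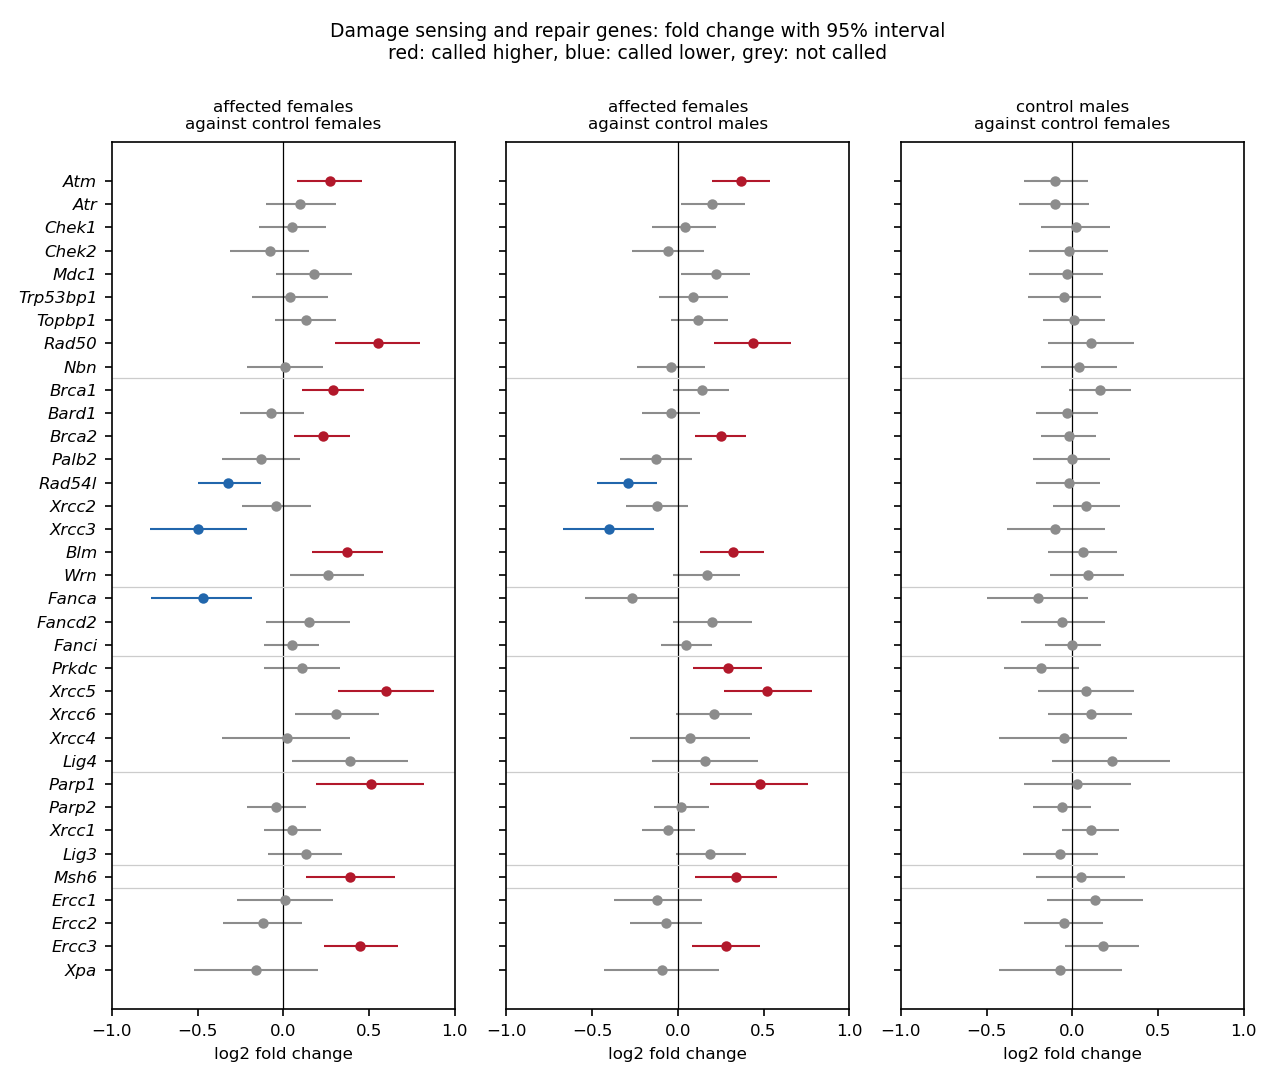
Log2 fold change of each of the 35 genes with its 95% confidence interval in the 3 comparisons, with called genes in colour. Affected females range from -0.50 to 0.60 against control females and from -0.40 to 0.52 against control males, while no gene is called between the 2 control groups.

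Among the 9 genes of damage signalling and break sensing, 2 rose against both control groups. Atm, the apical kinase of the double-strand break response (gene 11920, chromosome 9, 53437122 to 53536828), was at 188, 187, 195 and 191 CPM in affected females. Control males had 133, 147, 151 and 158 CPM, and control females 176, 153 and 144 CPM. All 4 affected females lay above every control embryo, with control female 1 the nearest. The log2 difference was 0.27 ± 0.09 (SE, n = 4 and 3, adjusted p = 0.0339 by edgeR) against control females and 0.37 ± 0.08 (n = 4 and 4, adjusted p = 0.0118 by edgeR) against control males.

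Rad50, the coiled-coil subunit that tethers broken ends in the Mre11 complex (gene 19360, chromosome 11, 53649519 to 53707319), was at 86.7, 85.2, 103 and 90.6 CPM in affected females. Control males had 56.8, 65.7, 65.8 and 81.8 CPM, and control females 68.9, 60.6 and 58.2 CPM. The groups did not overlap, although control male 4 came close. Log2 differences were 0.55 ± 0.12 (SE, adjusted p = 0.00575 by edgeR) and 0.44 ± 0.11 (adjusted p = 0.0158). Nbn, the third subunit of that complex, was at 60.8 to 73.5 CPM in affected females, 60.8 to 78.9 in control males and 63.7 to 75.9 in control females, with log2 differences of 0.01 and -0.04. The log2 ratio of Rad50 to Nbn was 0.21 to 0.51 in affected females, -0.39 to 0.11 in control males and -0.16 to -0.13 in control females. This pair was chosen after its values were seen, and the ratio is a description.

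The other 6 signalling genes were not called. These were Atr, the replication stress kinase, its activator Topbp1, the checkpoint kinases Chek1 and Chek2, and the break-site scaffolds Mdc1 and Trp53bp1. Their log2 differences ran from -0.08 for Chek2 to 0.18 ± 0.10 for Mdc1 against control females. Over the 11 embryos Atr ran from 115 to 154 CPM, Chek1 from 106 to 130, Chek2 from 37.5 to 50.5, Mdc1 from 219 to 303 and Trp53bp1 from 264 to 344. Topbp1 was at 401 to 432 CPM in affected females and 376 to 382 in control males, which did not overlap, with a log2 difference of 0.12 (adjusted p = 0.265 by edgeR). Exons of Tubgcp4 on the opposite strand cover 22.1% of the exonic bases of Trp53bp1, and whether counting used strand is not stated here. Polg covers 13.4% of Fanci in the same way, and Gm26852 and Klc3 cover 18.1% and 16.4% of Ercc2.

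Homologous recombination copies the sister chromatid, and its 9 genes moved in both directions. Against control females Brca1, Brca2 and Blm rose while Rad54l and Xrcc3 fell, and against control males Brca2 and Blm rose and the same pair fell. Brca1, the ubiquitin ligase that promotes end resection (gene 12189, chromosome 11, 101488761 to 101551955), was at 153, 151, 166 and 167 CPM in affected females, 136, 146, 141 and 156 in control males and 122, 141 and 126 in control females. Affected females lay above every control female and overlapped control male 4. The log2 difference was 0.29 ± 0.08 (adjusted p = 0.0211 by edgeR) against control females and 0.14 ± 0.08 (adjusted p = 0.212) against control males. Its obligate partner Bard1, whose promoter is printed above, was at 47.2 to 52.7, 47.9 to 55.1 and 48.9 to 53.6 CPM in the same order, with a log2 difference of -0.07 ± 0.09 against control females. The log2 ratio of Brca1 to Bard1 was 1.59 to 1.82 in affected females, 1.41 to 1.57 in control males and 1.19 to 1.40 in control females.

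Brca2, a mediator of strand exchange (gene 12190, chromosome 5, 150522297 to 150570147), was at 134, 125, 137 and 131 CPM in affected females. Control males had 105, 120, 111 and 108 CPM, and control females 109, 115 and 115 CPM. The affected females lay above every control embryo. Log2 differences were 0.23 ± 0.08 (adjusted p = 0.0395 by edgeR) and 0.25 ± 0.07 (adjusted p = 0.027). Blm, the helicase that dissolves joined recombination intermediates (gene 12144, chromosome 7, 80454993 to 80535148), was at 164, 161, 171 and 170 CPM in affected females, 126, 126, 128 and 154 in control males and 145, 122 and 119 in control females. Its affected females also lay above every control, with control male 4 the nearest. The log2 differences of Blm were 0.37 ± 0.10 (adjusted p = 0.0126 by edgeR) and 0.32 ± 0.09 (adjusted p = 0.0242).

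Rad54l, a motor that drives strand invasion (gene 19366, chromosome 4, 116094261 to 116123700), was at 80.6, 78.8, 87.7 and 84 CPM in affected females. Control males had 99.9, 115, 97 and 94.4 CPM, and control females 95.8, 105 and 108 CPM. Every affected female lay below every control. Against control females Rad54l fell by 0.32 in log2 CPM, with SE 0.09 and adjusted p = 0.0173 by edgeR. Against control males it fell by 0.29, with SE 0.08 and adjusted p = 0.0237 by edgeR. Xrcc3, a recombination factor (gene 74335, chromosome 12, 111803192 to 111813893), was at 20.7, 14.9, 18.4 and 18 CPM in affected females, 26.1, 26.9, 20.7 and 21.5 in control males and 24.2, 28.4 and 23.7 in control females. Affected females lay below all control females, and affected female 1 was level with control male 3. Xrcc3 fell by 0.50 (SE 0.14, adjusted p = 0.0162 by edgeR) and by 0.40 (SE 0.13, adjusted p = 0.0367). Palb2, which links Brca1 to Brca2, the recombination factor Xrcc2 and Wrn were not called. Palb2 ran from 34 to 45 CPM over the 11 embryos and Xrcc2 from 34.6 to 43.5 CPM, with log2 differences of -0.13 and -0.04 against control females. Wrn was at 35 to 39.4 CPM in affected females and 29.1 to 33.4 in control females, which did not overlap, with a log2 difference of 0.26 ± 0.10 (adjusted p = 0.0661 by edgeR).

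In the Fanconi anaemia pathway 1 of 3 genes fell against control females and none was called against control males. Fanca, a subunit of the core ubiquitin ligase (gene 14087, chromosome 8, 123266294 to 123318651), was at 49.4, 49.7, 55.9 and 50.2 CPM in affected females. Control males had 66.6, 75.4, 62.5 and 43.3 CPM, and control females 77.1, 70.3 and 66.4 CPM. Affected females lay below all control females, while control male 4 was below them all. Fanca fell by 0.47 (SE 0.14, adjusted p = 0.0224 by edgeR) against control females and differed by -0.27 ± 0.13 (adjusted p = 0.14) from control males. Exons of Zfp276 on the opposite strand cover 8.62% of its exonic bases. Fancd2 and Fanci, the pair that the core complex ubiquitinates, had log2 differences of 0.15 and 0.05 against control females and 0.20 and 0.05 against control males. Over the 11 embryos Fancd2 ran from 64.1 to 97 CPM and Fanci from 88 to 101 CPM.

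Of the 5 genes of non-homologous end joining, Xrcc5 rose against both control groups and Prkdc against control males. Xrcc5, the Ku80 subunit of the ring that caps broken ends (gene 22596, chromosome 1, 72307417 to 72394953), was at 114, 123, 137 and 131 CPM in affected females. Control males had 79.9, 70.1, 88.4 and 113 CPM, and control females 91.7, 79.3 and 78.3 CPM. The groups did not overlap, although control male 4 was nearly level with affected female 1. The log2 differences of 0.60 ± 0.13 (adjusted p = 0.00662 by edgeR) and 0.52 ± 0.12 (adjusted p = 0.0134) were the largest of the 35 genes.

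Its Ku70 partner Xrcc6 was at 87.5, 92.2, 112 and 95.2 CPM in affected females, 85.6, 72.6, 81.8 and 94.8 in control males and 89.9, 72.6 and 71.2 in control females. The groups overlapped, and the log2 differences of 0.31 ± 0.11 (adjusted p = 0.0514 by edgeR) and 0.21 (adjusted p = 0.16) were not called. Prkdc (gene 19090, chromosome 16, 15637444 to 15842239) was at 69.1, 60.9, 72 and 68.6 CPM in affected females, 56.1, 58.8, 56.3 and 50 in control males and 73.8, 58.4 and 56.2 in control females. Affected females lay above every control male, and control female 1 lay above them all. The log2 difference of Prkdc was 0.29 ± 0.10 (adjusted p = 0.044 by edgeR) against control males and 0.11 ± 0.10 (adjusted p = 0.431) against control females. The final ligation pair, Xrcc4 and Lig4, was not called, with log2 differences of 0.02 and 0.39 ± 0.16 (adjusted p = 0.0783 by edgeR) against control females. Xrcc4 ran from 6.57 to 10.6 CPM and Lig4 from 19.6 to 40.2 CPM over the 11 embryos.

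Single-strand break repair had 1 of its 4 genes called. Parp1 (gene 11545, chromosome 1, 180568891 to 180600999) was at 556, 538, 623 and 595 CPM in affected females. Control males had 349, 338, 424 and 552 CPM, and control females 461, 389 and 372 CPM. Control male 4 lay inside the range of the affected females, and the other 6 control embryos lay below it. Parp1 rose by 0.51 ± 0.15 on the log2 scale (adjusted p = 0.0225 by edgeR) and by 0.48 ± 0.14 (adjusted p = 0.027). Its relative Parp2 was at 75.5 to 85.2, 73.1 to 82.9 and 78.1 to 83.7 CPM in the 3 groups, with log2 differences of -0.04 and 0.02. The scaffold Xrcc1 and the ligase Lig3 were not called, at 0.05 and 0.13 against control females. Xrcc1 ran from 60.9 to 70.3 CPM and Lig3 from 142 to 197 CPM over the 11 embryos. Exons of Rffl on the opposite strand cover 27.9% of the exonic bases of Lig3.

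Msh6, the only mismatch repair gene of the list (gene 17688, chromosome 17, 87975050 to 87990892), was at 276, 311, 342 and 328 CPM in affected females. Control males had 215, 222, 242 and 315 CPM, and control females 233, 249 and 236 CPM. All affected females lay above the control females, and control male 4 lay among them. Msh6 rose by 0.39 ± 0.12 (adjusted p = 0.0293 by edgeR) and by 0.34 ± 0.11 (adjusted p = 0.047). Of the 4 nucleotide excision repair genes, Ercc3, the XPB helicase of TFIIH (gene 13872, chromosome 18, 32240304 to 32270151), was called. It was at 64.5, 74.2, 67.6 and 73.9 CPM in affected females, 53.8, 51.2, 57.3 and 68.5 in control males and 52.5, 51.1 and 49.8 in control females. Affected females lay above all control females and overlapped control male 4. Ercc3 rose by 0.45 ± 0.10 (adjusted p = 0.00727 by edgeR) and by 0.28 ± 0.09 (adjusted p = 0.0459). The other TFIIH helicase Ercc2, the nuclease subunit Ercc1 and the damage verifier Xpa were not called, at -0.12, 0.01 and -0.16 against control females. Over the 11 embryos Ercc2 ran from 28.4 to 38.1 CPM, Ercc1 from 15.1 to 22.7 CPM and Xpa from 7.9 to 11.9 CPM.

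**Figure D3:**
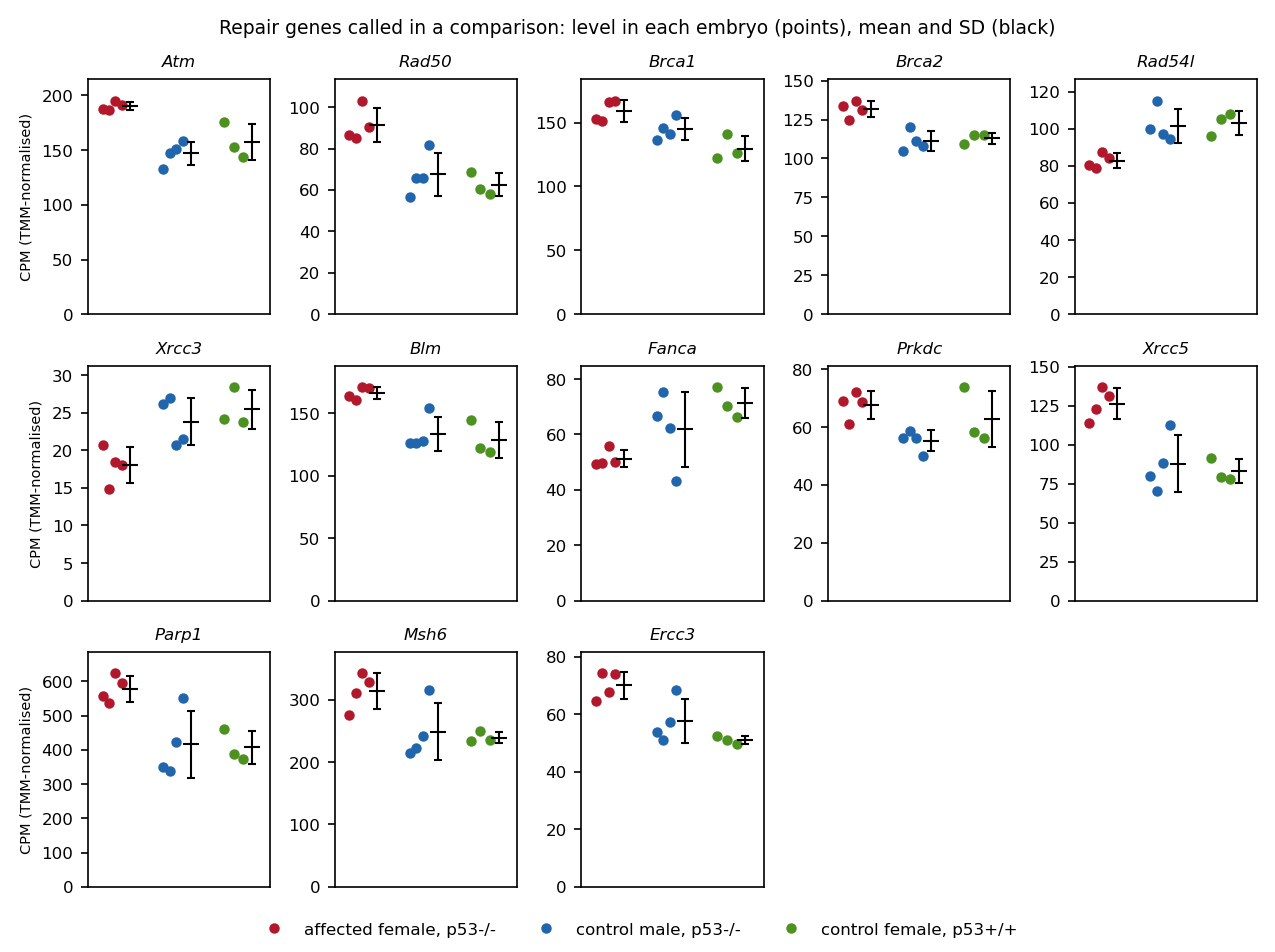
TMM-normalised CPM of each gene called in at least 1 comparison, with 1 point per embryo and the mean and SD of each group in black. Affected females lie above every control embryo for Atm, Rad50, Brca2, Blm and Xrcc5, and below every one for Rad54l, while control male 4 reaches the affected females for Parp1, Msh6 and Ercc3.

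Other genes of the same pathways were read alongside, from a list of 112 that were all tested. Against control females 17 were higher (15.2%, all genes 13.0%) and 19 lower (17.0%, all genes 15.0%), with a median log2 difference of 0.01. Against control males 7 were higher (6.25%, all genes 9.51%) and 11 lower (9.82%, all genes 10.7%), with a median of -0.02. Between the control groups 0 were called by edgeR (all genes 0.144%). There 10 had an unadjusted p under 0.05 by edgeR, as did 891 of all 14542 genes. Limma voom called 8 higher and 5 lower, and over all genes 4.79% and 6%. H2afx, the histone that Atm marks at breaks, rose by 0.61 ± 0.13 (adjusted p = 0.00672 by edgeR) against control females, as did Etaa1, an Atr activator, by 0.42 ± 0.10, and the nuclease Exo1 by 0.38 ± 0.09. Mre11a, the nuclease that works with Rad50 and Nbn, rose by 0.30 (adjusted p = 0.0481 by edgeR) and by 0.29 (adjusted p = 0.0483). Lig1, Ddb1 and Rev3l rose against control males by 0.43 ± 0.11, 0.54 ± 0.14 and 0.23 ± 0.07.

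Rpa3, the small subunit of the single-strand binding complex RPA, was at 32.8, 33.7, 25.4 and 21.2 CPM in affected females, 58.6, 47.9, 45.6 and 36.3 in control males and 56.1, 59.8 and 63.1 in control females. It fell by 1.08 (SE 0.16, adjusted p = 0.0018 by edgeR) and by 0.74 (SE 0.15, adjusted p = 0.0102), while the large subunit Rpa1 rose by 0.39 and by 0.32. The log2 differences of these 2 subunits therefore had opposite signs in both comparisons. For Rpa1, affected females at 237 to 289 CPM overlapped control male 4 at 257 CPM. Rpa2, another RPA subunit, was at 122 to 127, 104 to 130 and 106 to 108 CPM in affected females, control males and control females. Fancg, of the Fanconi core complex, fell by 0.57 (SE 0.13) and by 0.49 (SE 0.12), and Neil3, a DNA glycosylase, fell by 0.81 (SE 0.19) against control females. Rad52 and the nuclease Mus81 fell against control males by 0.52 (SE 0.12) and by 0.58 (SE 0.14). Ddb2, a sensor of ultraviolet lesions, fell by 1.09 (SE 0.22, adjusted p = 0.00444 by edgeR) against control females, and its mean level was 3.99, 6.94 and 8.55 CPM in affected females, control males and control females. Between the control groups it differed by -0.30 ± 0.21 (adjusted p = 0.845 by edgeR), which was not called.

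**Figure D4:**
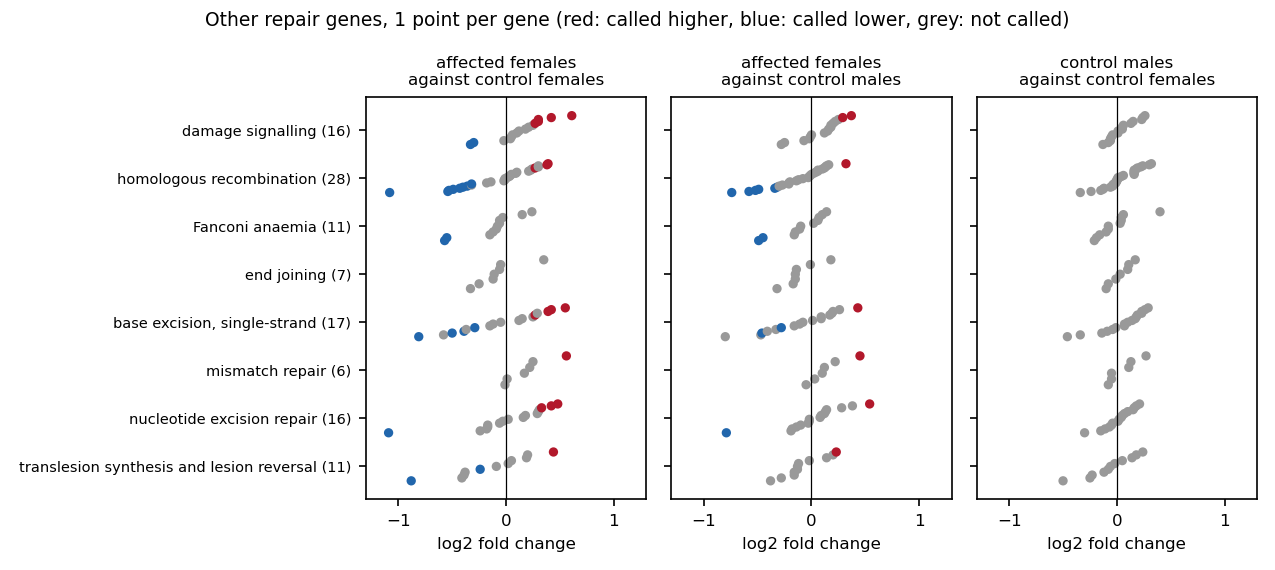
Log2 fold change of the 112 other repair genes in the 3 comparisons, grouped by pathway, with called genes in colour. Calls lie on both sides of 0 for affected females, from -1.09 for Ddb2 to 0.61 for H2afx against control females, and none is made between the control groups.

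Cell cycle and cell type markers were read in the same embryos. Over all genes tested 13.0% were called higher and 15.0% lower against control females, and 9.51% and 10.7% against control males. Counts of 1 in the short lists below, and 2 of 10 G2/M genes, were not far from these shares. Of 20 S phase and replication genes, 11 were higher against control females and 1, Ccne2, was lower. The replicative helicase gene Mcm2 rose by 0.38 and the polymerase gene Pola1, on the X chromosome, by 0.71. In all, 13 differences were positive and 7 negative, with Ccne2 at -0.55, E2f1 at -0.31, Prim1 at -0.21 and Pcna at -0.18. Against control males 7 were higher and 1, again Ccne2, lower. Their summed level was 4460 to 5160 CPM in affected females, 3580 to 4710 in control males and 3760 to 4130 in control females. Of 10 newly born neuron markers 9 were lower against control females and 8 against control males, with summed levels of 94.1 to 126, 182 to 314 and 122 to 297 CPM. Of 8 surface ectoderm markers 7 and 6 were higher, at 235 to 267, 130 to 188 and 118 to 220 CPM, and of 6 neural crest markers 5 and 2 were higher, at 297 to 355, 230 to 272 and 206 to 222 CPM. Of 10 G2/M genes 2 were higher against control females and 4 against control males, with summed levels of 3570 to 4010, 2920 to 3400 and 3210 to 3670 CPM. Of 8 neural progenitor markers 3 and 1 were higher, at 1660 to 1920, 1220 to 1610 and 1220 to 1390 CPM. Lin28a alone, the largest part of the sum in affected females, was at 934 to 1130, 372 to 810 and 386 to 744 CPM. Against control females 6 differences were positive and 2 negative, with Hes5 at -0.78 and Nes at -0.23, neither called. Against control males 5 were positive and 3 negative. Head mesenchyme had 1 of 6 markers higher against control females (378 to 499, 414 to 581 and 453 to 526 CPM) and endothelium 1 of 5 lower (207 to 259, 184 to 242 and 223 to 229 CPM), with none called against control males. Of 5 primitive erythroid markers none was called in either comparison, at 1030 to 2120, 1970 to 3420 and 501 to 4110 CPM. No marker in these lists was at 0 in every library. The share of counts from mitochondrial genes was 1.31 to 1.69% in affected females, 2.06 to 3.82% in control males and 2.48 to 4.99% in control females. Their part in the differences of the repair genes was not tested.

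The median of the 35 genes, centred over all embryos on the log2 scale, was 0.04, 0.03, 0.15 and 0.10 in affected females. It was -0.07, -0.05, -0.07 and 0.02 in control males and 0.05, -0.05 and -0.07 in control females. Control male 4 and control female 1 were the highest of their groups, and control female 1 lay inside the range of the affected females. Both embryos also stood highest of their groups for S phase genes, at 0.11 and -0.03, and for surface ectoderm, at 0.06 and 0.27. Control female 1 stood further from the other control females in primitive erythroid markers, at -2.08 against 0.97 and 0.67, in newly born neuron markers, at -0.35 against 0.76 and 0.92, and in neural progenitor markers, at -0.37 against -0.11 and -0.05. Without these 2 embryos, a setting chosen once the values were known, 12 of the 35 genes were higher and 3 lower against control females, and 13 higher and 3 lower against control males. In their groups these 2 lay nearest the affected females in this median. Leaving them out therefore favours more calls by construction, and the counts are no independent support. Over all genes tested the shares rose as well, to 19% higher and 19.9% lower against control females and to 19.9% and 21% against control males.

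**Figure D5:**
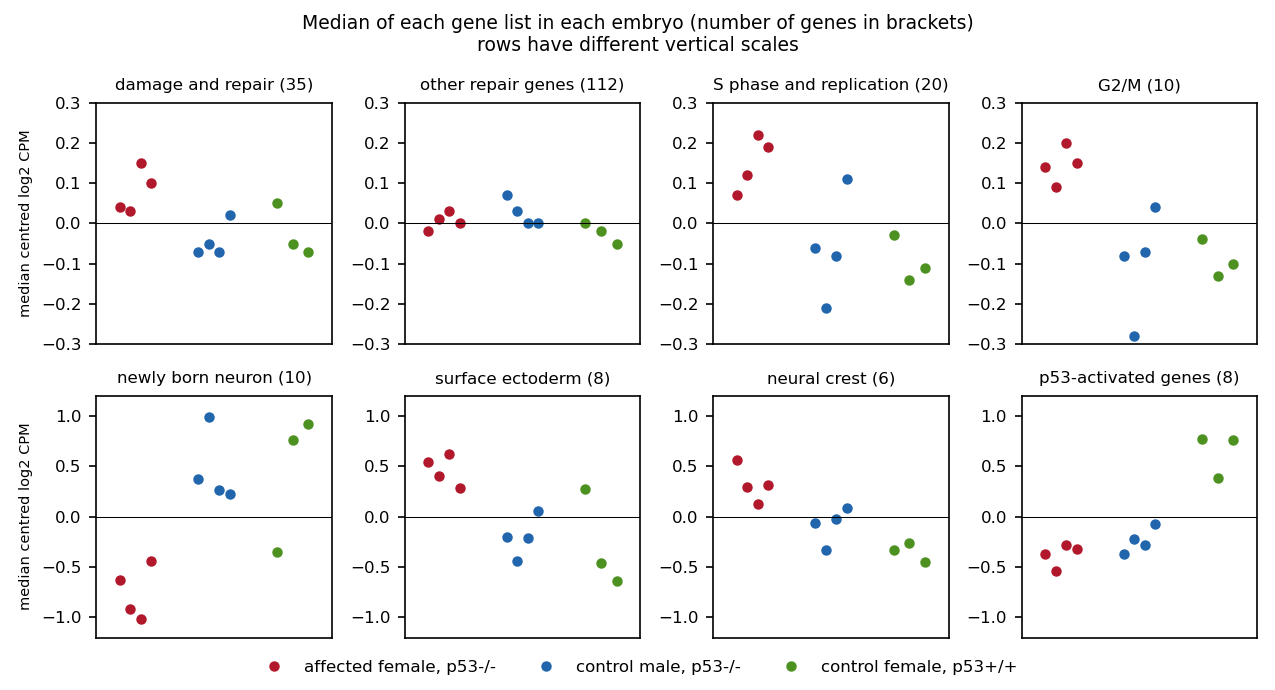
Median centred log2 CPM of each gene list in each embryo, with the number of genes in parentheses. The 35 repair genes range from 0.03 to 0.15 in affected females and from -0.07 to 0.05 in the control embryos, a narrower spread than the newly born neuron list at -1.02 to 0.99.

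Length and base composition differed between the genes called in each direction. Repair genes higher against control females had a median length of 4946 bases and 45.6% GC, those lower had 3076 bases and 54.4%, and those not called had 3747 bases and 47%. Over all genes tested the higher calls had 3346 bases and 49.9% GC and the lower calls 2573 bases and 48.7%. With trends on length and GC removed from each library, also chosen once the values were known, 5 of the 35 genes were higher against control males, and Brca2, Prkdc, Msh6 and Ercc3 were no longer called there. Their log2 differences became 0.15, 0.16, 0.27 and 0.25, from 0.25, 0.29, 0.34 and 0.28. Over all genes 9.57% were called higher in that fit. Against control females all 12 calls were kept under the same correction, and Wrn was called higher as well.

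The number of calls varied with single embryos. Rad50, Xrcc5 and Ercc3 were called against control females in all 11 fits that left out 1 embryo, with largest adjusted p-values of 0.0321, 0.0344 and 0.0354 by edgeR. Against control males no gene was called in all 11, with Atm called in 10 and Rad50 and Xrcc5 in 9 each. Without affected female 3 no gene was called against control males in either direction, and over all genes 1.23% were called higher and 1.26% lower in that fit. Across the 11 fits the log2 difference against control males stayed at 0.32 to 0.40 for Atm and 0.43 to 0.66 for Xrcc5. The count called higher there was 1 without control male 1, 3 without affected female 4 or control male 3, and 4 without control male 2. Over all genes the share called higher also fell from 9.51%, to 2% without control male 1 and 3.73% without affected female 4. It was 4.15% without control male 3 and 3.68% without control male 2. The count called lower there was 1 without affected female 1 and 0 without affected female 2, affected female 4, control male 1 or control male 2. In the same order, 7.61%, 8.5%, 4.37%, 2.55% and 4.15% of all genes were called lower. Against control females, 3 genes were called higher without control female 3. That count was 4 without affected female 3, affected female 4 or control female 2, and 0 were called lower without control female 2. The share of all genes called higher there also fell from 13.0%, to 3.8% without control female 3 and 4.63% without affected female 3. It was 6.88% without affected female 4 and 4.77% without control female 2. The share of all genes called lower fell from 15.0% to 8.29% without control female 2. Each of the 23 called differences kept its sign in all 22 alternatives.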

How the data were processed

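Neural tissue RNA of 11 mouse embryos was sequenced (4 affected females, 4 control males, 3 control females). The deposited values were raw counts per gene, made by the authors with featureCounts on mm10, per the submitters' processing notes; the aligner, versions, strand setting and annotation used were not stated there. Gene IDs were named through RefSeq, and 25275 of 27179 matched. The 35 genes and all lists were chosen with earlier results of these data known.

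Counts were tested with edgeR 4.0.16 (R 4.3.3): default filter on low counts, TMM scaling, 1 quasi-likelihood fit of the 3 groups, and Benjamini-Hochberg adjustment over 14542 genes at 0.05. Standard errors are the log2 difference divided by the square root of F. CPM used TMM-scaled totals, log2 CPM a prior count of 2, and RPKM the deposited gene length. Exon overlaps came from GENCODE vM21. The common biological coefficient of variation was 11.9%. Counts were simulated with 200 changed genes, in a single draw per comparison. The test recovered 43.3% of genes changed by 1.5-fold between affected and control females. It recovered 44.8% between affected females and control males and 46.3% between the control groups. False calls made up 9.38%, 4.03% and 4.64% of the simulated calls in the same order. In the data 28.0% of genes were called against control females, a far larger share than was changed in the simulation. Recovery and false calls depend on that share, so these values do not carry over to the calls here. Changes of the size seen here may still be missed. Whether the calls against control females hold more false calls than the threshold of 0.05 allows was not tested. Every gene of the list is accounted for, embryo by embryo where called in at least 1 comparison (at most 4 per role group, by adjusted p), while others are given by range. Brca2, the fifth of its group, was added after its values were seen. Of the 112 other genes, up to 4 called in each direction and comparison are named, with mean log2 CPM of at least 2, except that 1 is not reported here. The alternatives, with limma 3.58.1 and DESeq2 1.42.0 among them, are in the closing section.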

Additional observations from a re-analysis of the deposited data

Results flagged for a closer look

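In 3 of 70 groups of 4 embryos, 1 embryo stood far from the other 3 of its group, with a gap above Dixon's 95% critical value, where chance gives about 1 in 20. Chek2, a checkpoint kinase, was at 40.6 CPM in control male 4 and at 47.3 to 48.7 CPM in the other control males. Blm was at 154 CPM in control male 4 and at 126 to 128 CPM in the others. Fanca was at 55.9 CPM in affected female 3 and at 49.4 to 50.2 CPM in the other affected females.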

How the results depend on the processing

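No called difference reversed under the 22 alternatives, of which 2 were added after the data were seen. Limma voom with sample weights called 15 of the 35 genes higher against control females and 17 against control males, where it called 25.4% and 21.6% of all genes higher. Removing length and GC trends left 5 higher against control males. The causes were not tested. Leaving out 1 embryo at a time gave 3 to 11 genes higher and 0 to 3 lower against control females, 0 to 10 higher and 0 to 3 lower against control males, and 0 to 0 between the control groups. Shares over all genes varied too, at 3.8% to 16.3% higher and 7.54% to 17.9% lower against control females. Against control males they were 1.23% to 17.1% higher and 1.26% to 18.4% lower. Same-numbered embryos were not paired by the labels, and their deviations correlated at r = -0.14 to 0.18 over 10 pairs, 3 of them over 0.1. With the replicate block, 7 genes were higher and 2 lower against control females, 9 and 2 against control males, and 0 and 0 between the controls. Over all genes that fit called 8.77% higher and 11% lower against control females, and 11.4% and 12.1% against control males. RLE scaling, TMM from autosomal genes, other filters, robust fitting, DESeq2 and fits of 2 groups moved no count by over 1.5 times. With 3 or 4 embryos a group, changes under 1.5-fold may be missed at this depth. Of the calls among the 35 genes, only that of Xrcc5 against control females, at 1.52-fold, was larger than that.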
